A study of Rattus norvegicus with 9 samples.

Results

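Haemoglobin carries oxygen in red cells as a tetramer of paired alpha-type and beta-type chains, each holding a haem group. In rodents the alpha-type and beta-type chains come from separate gene clusters, which red cell precursors switch on strongly as they mature in the marrow inside bones such as the femur. Embryonic chains are made from neighbouring genes of the same clusters early in development. The haemoglobin genes described here are the rows of the deposited table whose gene name was Hba-a1, Hba-a2 or Hba-a3 (alpha chains), Hbq1b (theta, an alpha-like chain), Hbb or Hbb-bs (adult beta chains), or Hbe1 (epsilon, an embryonic beta-like chain). Each name matched 1 row, so 7 of 32623 rows were haemoglobin genes, and all 7 were among the 13886 rows tested because their mean was at least 1 FPKM, a level scaled for transcript length and sequencing depth.

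RNA came from the femur of Sprague-Dawley (SD) rats whose genotype is labelled WT, and poly(A) RNA was sequenced in 9 libraries. The treated group is labelled as given Desertliving Cistanche herb, a parasitic desert plant used in traditional medicine, and the series title places the herb in ovariectomized rats, although the treated labels do not repeat the surgery. The ovariectomized group had the ovaries removed, a model of bone loss after menopause, and the control group is described as normal rats. Each group held 3 libraries; age, dose, duration, a sham operation and the number of animals per library are not given in the labels, so p-values measure only the spread between these libraries.

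The genes lay in 2 compact clusters. In the coordinates of the deposited table, for which no label or header names a genome build, Hba-a3 (15577249 to 15577977), Hba-a2 (15589364 to 15590220), Hbq1b (15600220 to 15600858) and Hba-a1 (15602794 to 15603649) shared the minus strand of chromosome 10 over 26401 bases. Chromosome 1 held Hbb-bs (168945449 to 168965566, plus strand), Hbb (168971274 to 168972725, minus strand) and Hbe1 (169003788 to 169005190, minus strand) over 59742 bases. The Hbb-bs row spans 20118 bases with 3 transcripts and contains the whole of LOC100134871 (168957460 to 168958836, plus strand), which the table describes as the beta globin minor gene. LOC100134871 is not 1 of the 7 genes and was added after its values were seen, because reads of Hbb-bs and of LOC100134871 could be exchanged between their rows. The alpha rows do not overlap each other, but all of them are alpha chain genes and their transcripts were not compared here. How reads were split among Hba-a1, Hba-a2 and Hba-a3 is therefore uncertain.

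The 150 bases before the start of each gene, from RefSeq on assembly GRCr8, are shown for the genes that carry the results, so that close copies within each cluster can be compared. Capitals mark 4 short motifs wherever a script found them on either strand. They are the CACCC motif, which Klf1 and related factors bind, then the CCAAT motif, then the TATA-like motif ATAAA, and lastly the motif GATAA, which Gata factors bind. A match on the other strand is in capitals in the letters of the printed strand, as in the ATTGG of Hbb. No matches of different motifs shared bases. RefSeq lists LOC100134871 as Hbbl1, and on GRCr8 all of these genes lie on the minus strand. This differs from the deposited coordinates, where Hbb-bs and LOC100134871 lie on the plus strand, the second inside the first. Whether the windows printed for them belong to the deposited rows was not tested.
Hba-a1 (GRCr8 chr10:15842581-15842730, minus strand): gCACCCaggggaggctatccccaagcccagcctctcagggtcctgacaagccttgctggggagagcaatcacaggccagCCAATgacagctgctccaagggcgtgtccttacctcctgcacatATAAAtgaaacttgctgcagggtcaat
Hba-a2 (GRCr8 chr10:15829139-15829288, minus strand): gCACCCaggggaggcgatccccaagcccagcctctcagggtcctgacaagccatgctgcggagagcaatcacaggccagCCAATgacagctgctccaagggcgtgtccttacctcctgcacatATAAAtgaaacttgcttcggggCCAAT
Hba-a3 (GRCr8 chr10:15816944-15817093, minus strand): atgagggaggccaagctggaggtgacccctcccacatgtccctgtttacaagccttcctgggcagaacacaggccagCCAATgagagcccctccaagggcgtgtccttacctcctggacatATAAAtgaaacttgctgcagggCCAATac
Hbq1b (GRCr8 chr10:15839840-15839989, minus strand): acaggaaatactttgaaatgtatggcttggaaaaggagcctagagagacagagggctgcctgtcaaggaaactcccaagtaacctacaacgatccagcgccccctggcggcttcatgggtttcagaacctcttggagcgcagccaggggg
Hbb (GRCr8 chr1:167663722-167663871, minus strand): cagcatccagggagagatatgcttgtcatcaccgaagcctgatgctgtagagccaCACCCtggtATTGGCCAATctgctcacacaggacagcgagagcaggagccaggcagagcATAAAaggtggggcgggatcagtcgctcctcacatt
Hbb-bs (GRCr8 chr1:167631631-167631780, minus strand): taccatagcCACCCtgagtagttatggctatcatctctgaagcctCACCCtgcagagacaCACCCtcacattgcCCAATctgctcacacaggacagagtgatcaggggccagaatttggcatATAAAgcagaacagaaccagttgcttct
LOC100134871 (GRCr8 chr1:167650236-167650385, minus strand): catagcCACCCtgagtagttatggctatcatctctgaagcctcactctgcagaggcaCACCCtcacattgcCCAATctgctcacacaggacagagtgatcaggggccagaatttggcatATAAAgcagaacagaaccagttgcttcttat
Of the 8 windows searched (those above and that of Hbe1), CCAAT was found in 7, ATAAA in 7, CACCC in 5 and GATAA in 1. The same letters were found in 23.5%, 25.7%, 35.2% and 14.2% of the 33469 promoter windows of this length in the RefSeq table. Every window but that of Hbq1b, which held none of the 4 motifs, had ATAAA between positions -36 and -27 counted from the start. A match describes these letters and is not a site. Compared without gaps, the windows of Hba-a1 and Hba-a2 were identical at 144 of 150 bases. Those of Hbb-bs and LOC100134871 were identical at 145 bases once shifted along each other, since their CCAAT lay at -76 and -79. The windows of Hba-a1 and Hba-a3 shared 92 bases and those of Hbb and Hbb-bs 87, in both cases also after a shift.

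The libraries held 54992823 to 66531156 counts, and 8 of 9 listed markers of bone-forming cells had a row, with counts in every library. Control replicate 2 stood apart in its haemoglobin rows, and the fold changes and list medians against control libraries are therefore also given without it. Its CPM (the counts of a row relative to its library total, scaled by TMM factors) was 2.87-fold above the median of the other 8 libraries for Hbb, 1.74-fold for Hba-a1 and 1.87-fold for Hba-a2. For Hba-a3 it lay 19.0-fold under that median. Among genes with a mean of at least 100 CPM, Hba-a3 in control replicate 2 was the only case of a library at least 10-fold below each of the other 8 (on CPM + 1). Over all tested genes it had 39 genes at least 1.5-fold above every other library, where the other libraries had 6 to 173, and 80 genes below, where the others had 21 to 116. At 10-fold below every other library it had 5 genes, the most of any library, where the others had 0 to 3.

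Haemoglobin transcripts were the most abundant in the femur. By mean FPKM over the 9 libraries, Hba-a1 ranked 1 of all rows (73529 FPKM), Hbb ranked 2 (40307 FPKM), Hba-a2 ranked 3 (31618 FPKM) and LOC100134871 ranked 4 (22382 FPKM). Hbb-bs ranked 12 (5537 FPKM, but 9 by mean counts) and Hba-a3 ranked 51 (1101 FPKM). The minor alpha-like gene Hbq1b ranked 586 (116 FPKM), and the embryonic Hbe1 ranked 13398 (1.27 FPKM, 26 to 86 counts per library).

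Together the 7 genes took 6.89%, 8.82% and 7.12% of all counts in treated libraries 1, 2 and 3. They took 8.55%, 10.1% and 8.41% in ovariectomized libraries and 10.6%, 16.2% and 10.6% in control libraries. Every control library lay above every treated and every ovariectomized library, whereas treated replicate 2 lay inside the ovariectomized range. The mean share was 7.61% ± 1.05 in treated, 9.02% ± 0.929 in ovariectomized and 12.5% ± 3.23 in control libraries (SD, n = 3 each), and 10.6% in control replicates 1 and 3 alone. The 3 alpha rows alone took 4.47% to 5.45% in treated, 5.48% to 6.62% in ovariectomized and 6.86% to 9.10% in control libraries, and these 3 ranges did not overlap. In bulk RNA, fewer red cell precursors and less haemoglobin RNA per cell cannot be told apart.

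**Figure D1:**
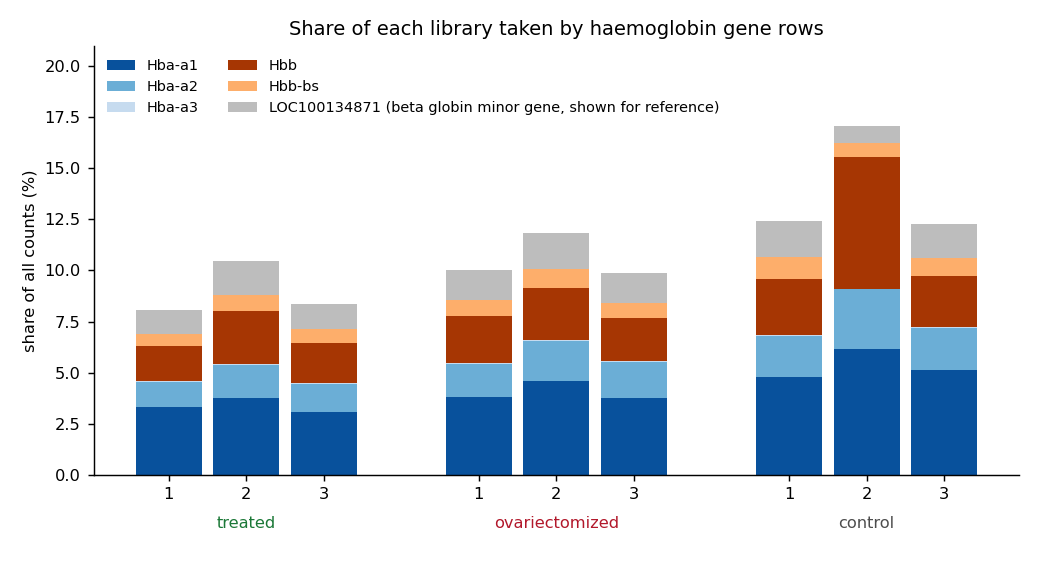
Share of all counts (%, vertical axis) taken by haemoglobin rows in each library, replicates 1 to 3 of the treated, ovariectomized and control groups. Stacked colours are single genes; the grey top of each bar is LOC100134871, and Hbq1b and Hbe1 are left out because their shares are too small to see. Alpha rows, the blue base of each bar, take 4.47% to 5.45% in treated and 6.86% to 9.10% in control libraries, and control replicate 2 has the tallest orange segment (Hbb).

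Among the alpha chains, Hba-a1 and Hba-a2 had the same order of groups. Hba-a1 stood at 32732, 36386 and 29615 CPM in treated libraries 1, 2 and 3, at 38251, 46328 and 37413 CPM in ovariectomized libraries, and at 50199, 65704 and 50703 CPM in control libraries. No treated library reached the lowest ovariectomized library, and no ovariectomized library reached the lowest control library. Hba-a2 stood at 12299, 16007 and 12804 CPM in treated libraries, at 16479, 19764 and 17186 CPM in ovariectomized libraries, and at 20683, 31485 and 20307 CPM in control libraries. Its groups did not overlap either, and the gap between the highest treated and the lowest ovariectomized library was small. In all 9 libraries Hba-a1 exceeded Hba-a2, with an FPKM ratio of 2.28 to 2.67 in treated, 2.18 to 2.35 in ovariectomized and 2.09 to 2.50 in control libraries.

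Hba-a3, the least abundant of the alpha rows, did not follow that order. It had 365, 489 and 441 CPM in treated libraries, 533, 664 and 392 CPM in ovariectomized libraries, and 962, 26.8 and 572 CPM in control libraries. Control libraries held both its highest and its lowest value, the lowest from 1575 counts in control replicate 2 against 21020 to 57619 counts in the other 8 libraries. Hbq1b had 39.6, 49.3 and 42.6 CPM in treated libraries, 58.3, 66.4 and 62.6 CPM in ovariectomized libraries, and 59.3, 49.7 and 47.8 CPM in control libraries. The treated and ovariectomized ranges of Hbq1b did not overlap, and control libraries overlapped both. Per 1000 FPKM of the 3 alpha rows, Hbq1b had 1.12 to 1.27 FPKM in treated, 1.27 to 1.46 FPKM in ovariectomized and 0.655 to 1.05 FPKM in control libraries, so it was lowest in controls relative to the alpha genes around it.

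**Figure D2:**
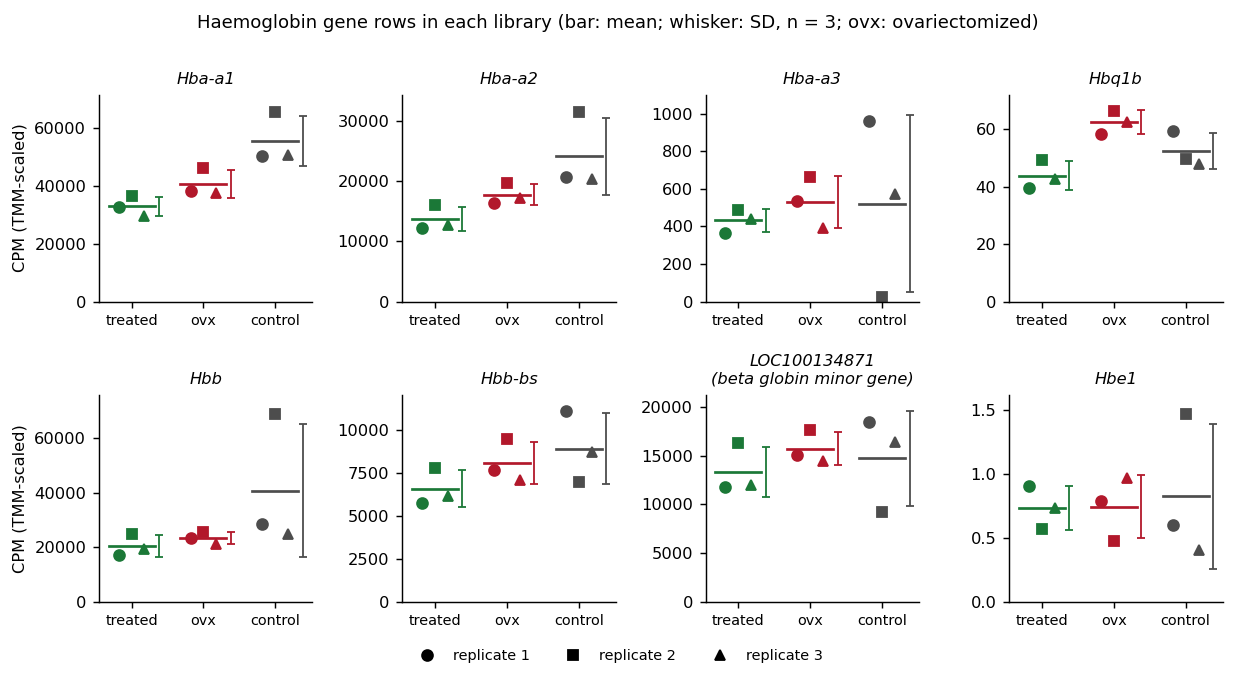
CPM of each haemoglobin row and of LOC100134871 in the 9 libraries (linear axes starting at 0; points are replicates, the bar is the group mean and the whisker the SD, n = 3). Hba-a1 and Hba-a2 have their treated libraries lowest and their control libraries highest without overlap, whereas Hba-a3 and LOC100134871 have their lowest value, and Hbb its highest, in control replicate 2.

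Among the beta chains, Hbb had 17202, 24875 and 19182 CPM in treated libraries, 23292, 25432 and 21042 CPM in ovariectomized libraries, and 28489, 69141 and 24875 CPM in control libraries. Outside control replicate 2 its groups overlapped, since control replicate 3 stood level with treated replicate 2. Hbb-bs had 5748, 7815 and 6186 CPM in treated libraries, 7659, 9461 and 7113 CPM in ovariectomized libraries, and 11104, 6968 and 8708 CPM in control libraries. Its lowest control value came from control replicate 2 and lay within the treated range. LOC100134871 had 11755, 16258 and 11942 CPM in treated libraries, 15049, 17659 and 14432 CPM in ovariectomized libraries, and 18449, 9244 and 16396 CPM in control libraries, again with control replicate 2 lowest. Hbe1 ranged over 0.565 to 0.903 CPM in treated, 0.477 to 0.964 CPM in ovariectomized and 0.402 to 1.46 CPM in control libraries, and no difference was detectable at this depth.

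The make-up of the beta rows was different in control replicate 2 and nearly fixed in the other 8 libraries. Of the FPKM sum of Hbb, Hbb-bs and LOC100134871, Hbb made up 84.0% in control replicate 2 and 52.2% to 55.0% in the 8 other libraries. LOC100134871 made up 11.9% in control replicate 2 and 36.3% to 38.4% in the 8 others, and Hbb-bs made up 4.13% in control replicate 2 and 8.30% to 10.1% in the 8 others. The Hbb-bs share rests on the length behind its deposited FPKM, which counts and FPKM imply to be 1412 bases. The same reckoning gives 688 bases for Hbb and 649 for LOC100134871. By counts Hbb-bs made up 8.16% of the beta rows in control replicate 2 and 16.0% to 19.1% in the 8 others. Among the alpha rows, Hba-a3 made up 0.0358% of the FPKM sum in control replicate 2 and 0.923% to 1.73% in the 8 others. The ratio of the alpha to the beta FPKM sum did not set this library apart. That ratio was 1.66, 1.37 and 1.46 in treated libraries, 1.53, 1.63 and 1.64 in ovariectomized libraries, and 1.60, 1.40 and 1.83 in control libraries. The groups overlapped, and control replicate 2, at 1.40, lay within the range of the others. By counts the ratio was 1.08 to 1.43 in the 8 other libraries and 1.14 in control replicate 2. Whether reads of close copies were assigned differently in this library was not tested.

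**Figure D3:**
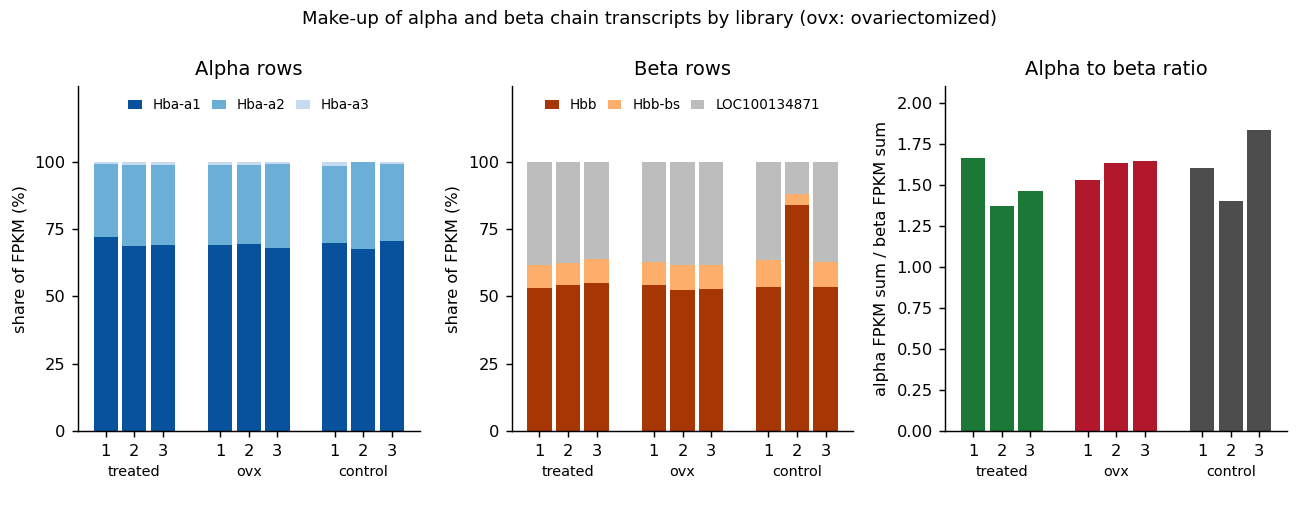
Left and middle, percentage of the alpha FPKM sum and of the beta FPKM sum (vertical axes) that each gene makes up in each library; right, ratio of the alpha to the beta FPKM sum. Hbb takes 84.0% of the beta sum in control replicate 2 and 52.2% to 55.0% elsewhere, while the alpha to beta ratio of that library, 1.40, lies among the others.

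Treated against ovariectomized libraries addresses the herb in ovariectomized rats, as far as the series title gives the surgery of the treated group. The estimates of all 7 genes lay below 0 (median log2 fold change -0.30), where 51% of all tested genes did, but that of Hbe1 turned to 0.0104 without TMM factors. Hba-a1, Hba-a2 and Hbq1b, 3 of 7, had all treated libraries below all ovariectomized libraries, as did 6.63% of all tested genes, and 0 of 7 had them all above, as did 5.75%. The edgeR quasi-likelihood test called 0% of genes (0 of 13886) after Benjamini-Hochberg adjustment, although 5.2% had an unadjusted p under 0.05. Hbq1b averaged 43.8 ± 4.97 CPM in treated and 62.5 ± 4.05 CPM in ovariectomized libraries (SD, n = 3 each), a log2 fold change of -0.51 ± 0.11 (SE; edgeR adjusted p = 0.906). Hba-a1 was estimated at -0.31 ± 0.18 and Hba-a2 at -0.38 ± 0.21, with adjusted p of 0.945 and 0.936 by edgeR. DESeq2, which called 38 genes (0.274%), called Hbq1b (adjusted p = 0.0364) and no other haemoglobin gene, and gave Hbe1 no adjusted p. Without control replicate 2 in the fit the edgeR estimates of Hbq1b, Hba-a1 and Hba-a2 were -0.50, -0.30 and -0.37, and DESeq2 called 64 genes (0.461%), Hbq1b among them (adjusted p = 0.0421). Leaving out ovariectomized replicate 2 moved the median of the 7 genes to -0.19, and over the 9 libraries left out in turn 6 or 7 estimates lay below 0.

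Treated against control libraries combines surgery and herb, as far as the title gives it. All 7 estimates again lay below 0 (median -0.44; 50% of all genes), and Hba-a1 and Hba-a2 had all treated below all control libraries, as did 6.78% of all genes. None of the 7 had all treated above all control libraries, as did 6.34%. Hba-a1 averaged 32911 ± 3389 CPM in treated and 55535 ± 8810 CPM in control libraries (SD, n = 3 each), a log2 fold change of -0.75 ± 0.18 (edgeR adjusted p = 0.469). Hba-a2 averaged 13703 ± 2011 CPM in treated and 24158 ± 6348 CPM in control libraries, a log2 fold change of -0.82 ± 0.21 (edgeR adjusted p = 0.469). Hbb had the lowest estimate, -1.0 ± 0.37 (edgeR adjusted p = 0.516), which was -0.39 without control replicate 2. Hbb-bs was at -0.44, Hba-a3 at -0.27 and Hbq1b at -0.25. Without that library Hba-a1 was at -0.62, Hba-a2 at -0.58, Hbb-bs at -0.59, Hba-a3 at -0.83 and Hbq1b at -0.29. Hbe1 was then at 0.54, so that 6 of 7 estimates lay below 0 (median -0.58). Hba-a3 and Hbb-bs then also had all treated below the 2 remaining control libraries, making 4 of 7 beside 12.8% of all genes. Again edgeR called 0% of genes (8.81% at an unadjusted p under 0.05), while DESeq2 called 153 (1.1%), including Hba-a1 (adjusted p = 0.000288) and Hba-a2 (adjusted p = 0.00564). Without control replicate 2 DESeq2 called 176 genes (1.27%), again with Hba-a1 (adjusted p = 0.00222) and Hba-a2 (adjusted p = 0.012) and no other haemoglobin gene.

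Ovariectomized against control libraries addresses the surgery and shares its controls with the previous comparison. Here 5 of 7 estimates lay below 0 (median -0.14; 51.3% of all genes), and Hba-a1 and Hba-a2 had all ovariectomized below all control libraries, as did 3.92% of all genes. None of the 7 had all ovariectomized above all control libraries, as did 5.02%. Hba-a1 was estimated at -0.45 ± 0.18 (edgeR adjusted p = 0.952) and Hba-a2 at -0.44 ± 0.21 (edgeR adjusted p = 0.974). Hbq1b had an estimate above 0, 0.26 ± 0.11 (edgeR adjusted p = 0.974), and Hba-a3 was at 0.03 ± 0.88. Hbb was at -0.81 ± 0.37 (edgeR adjusted p = 0.974) and at -0.21 without control replicate 2, and Hbb-bs was at -0.14 ± 0.20. No gene was called by edgeR, 0% of those tested (5.05% at an unadjusted p under 0.05), and of the 59 genes DESeq2 called (0.425%) none was a haemoglobin gene, nor was any of the 101 it called without control replicate 2 (0.727%). Without that library Hbq1b was at 0.21, Hba-a3 at -0.55 and Hbb-bs at -0.30. The estimates of Hba-a1 and Hba-a2 were then -0.32 and -0.21, and they remained the only haemoglobin genes with all ovariectomized below all control libraries, 2 of 7 beside 9.07% of all genes. The median of the 7 genes ran between -0.47 (without control replicate 3) and -0.14 over the 9 libraries left out in turn. It was -0.33 when control replicate 1 was dropped, and -0.28 and -0.37 when ovariectomized replicates 2 and 3 were.

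**Figure D4:**
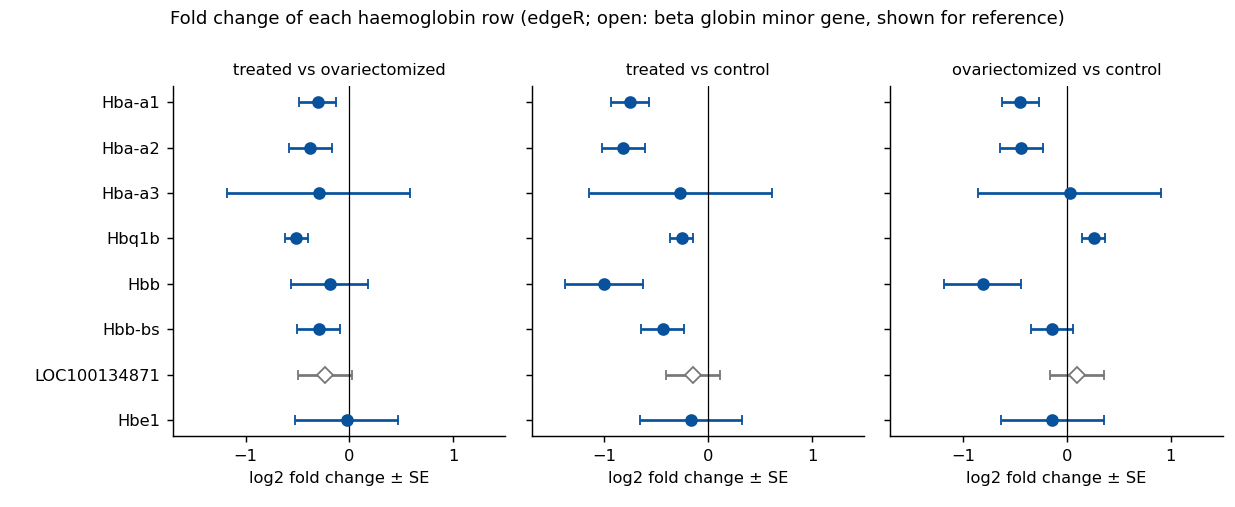
Log2 fold change of each haemoglobin row (points, horizontal axis) with its SE (whiskers) from the edgeR fit of all 9 libraries, for treated against ovariectomized, treated against control, and ovariectomized against control. Points left of the line at 0 are lower in the first-named group; the 7 genes are all left of it in the first and second panels (Hbe1 in the first turns to 0.0104 without TMM factors), and Hba-a3 has the widest whiskers.

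Haemoglobin assembly also needs haem, chaperones and a red cell to hold it, so 5 lists of such genes were read in the same fit. Of their 74 tested genes, 67 had an estimate below 0 in treated against ovariectomized libraries (median -0.25), 68 in treated against control (median -0.34) and 58 in ovariectomized against control (median -0.08). All treated libraries lay below all ovariectomized libraries for 34 of the 74 and below all control libraries for 25, against the 6.63% and 6.78% of all genes given above. In ovariectomized against control the count was 0 (3.92% of all genes). Without control replicate 2, treated against control had 64 estimates below 0 (median -0.18) and 25 genes without overlap, beside 12.8% of all genes. Ovariectomized against control then turned, with 23 of 74 estimates below 0 (median 0.05), whereas 5 of the 7 haemoglobin genes lay below 0 (median -0.21). That joint median was also unsteady elsewhere, at -0.18 without control replicate 1 and at -0.04 and -0.13 without ovariectomized replicates 1 and 2. None of the 74 was called by edgeR, and for 20, 34 and 1 of them the unadjusted p was under 0.05 in these comparisons.

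Haem synthesis had 16 tested genes, of which 14 had estimates below 0 in treated against ovariectomized (median -0.20) and 15 in treated against control libraries (median -0.24, and -0.11 with 15 below 0 without control replicate 2). Alas2, the red cell form of the first enzyme of the pathway, averaged 651 ± 75.7 CPM in treated, 813 ± 52.4 CPM in ovariectomized and 1000 ± 254 CPM in control libraries, a treated against control estimate of -0.62 ± 0.17 (edgeR adjusted p = 0.473) that was -0.41 without control replicate 2. Fech, which inserts the iron, was at -0.32 ± 0.19 in treated against ovariectomized and -0.50 ± 0.19 in treated against control, the second being -0.23 without control replicate 2. For Alas2 and Fech every treated library lay below every library of both other groups.

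The list of globin gene regulators and a globin chaperone had 15 tested genes, among them Eif2ak1, a haem-regulated kinase that acts on translation. Of these, 12 had estimates below 0 in treated against ovariectomized (median -0.10) and 13 in treated against control libraries (median -0.11). Without control replicate 2 these counts were the same, with medians of -0.10 and -0.08. Gata1, the main red cell transcription factor, had 47.4, 50.2 and 47.4 CPM in treated libraries, 56.3, 60.4 and 58.7 CPM in ovariectomized libraries, and 55.3, 73.2 and 62.7 CPM in control libraries. Its treated libraries were the lowest 3 of the 9. Klf1, which activates adult beta globin, also had its treated libraries below all others and was estimated at -0.36 ± 0.13 against ovariectomized and -0.48 ± 0.13 against control libraries, the second being -0.36 without control replicate 2. Nfe2, another regulator of globin genes, was at -0.09 ± 0.11 and -0.06 ± 0.11 with overlapping groups. Its treated against control estimate was also -0.06 without control replicate 2. Ahsp, the chaperone of free alpha chains, was at -0.31 ± 0.18 and -0.42 ± 0.18 with overlapping groups, and its treated against control estimate was -0.21 without control replicate 2. Per 1000 FPKM of the alpha rows, Ahsp had 12.4, 13.8 and 15.0 FPKM in treated, 13.0, 13.4 and 14.2 FPKM in ovariectomized, and 9.34, 11.3 and 11.5 FPKM in control libraries, so that controls lay below both other groups.

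Red cell membrane and skeleton genes had estimates below 0 for 15 of 16 in treated against ovariectomized (median -0.34) and for 15 of 16 in treated against control libraries (median -0.41). Without control replicate 2 the treated against control median was -0.22, with 14 of 16 below 0. Epb42, a protein that anchors the membrane skeleton, was at -0.46 ± 0.16 and -0.61 ± 0.16, in each case with no overlap. Rhag, a membrane transport protein, was at -0.36 ± 0.19 and -0.45 ± 0.19. Slc4a1, the anion exchanger band 3, was at -0.15 ± 0.27 and -0.40 ± 0.27, with 4465 CPM in control replicate 2 and 1849 to 2637 CPM in the other 8 libraries. In treated against control the estimates without that library were -0.38 for Epb42, -0.25 for Rhag and 0.0071 for Slc4a1. Of 18 late erythroid genes, 17 had estimates below 0 in each of these comparisons (medians -0.27 and -0.48), and 14 in treated against control without control replicate 2 (median -0.25). Slc25a37, the mitochondrial iron importer, was at -0.37 ± 0.17 and -0.54 ± 0.17, and Bpgm, which makes the haemoglobin ligand bisphosphoglycerate, at -0.23 ± 0.17 and -0.59 ± 0.17. Tfrc, the transferrin receptor, was at -0.29 ± 0.20 and -0.48 ± 0.20, while Epor, the erythropoietin receptor, was at -0.02 ± 0.15 and -0.13 ± 0.15. Of 9 red cell enzyme genes, 9 and 8 had estimates below 0, with the peroxidase gene Prdx2 at -0.37 ± 0.15 and -0.53 ± 0.15, and their treated against control median of -0.32 was -0.14 without control replicate 2. Without that library the treated against control estimates were -0.32 for Slc25a37, -0.42 for Bpgm, -0.32 for Tfrc, 0.03 for Epor and -0.34 for Prdx2. The edgeR adjusted p of every gene named here was 0.469 or more.

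Clearance genes bind free haemoglobin or break down haem. Beside the red cell lists, their median was opposite in treated against ovariectomized and smaller in treated against control libraries. Both of these turned when single libraries were left out. In ovariectomized against control their median lay further below 0 than those of the red cell lists, and stayed there (-0.39 to -0.17) with each library left out. Of 9 clearance genes tested, 3 had estimates below 0 in treated against ovariectomized (median 0.16), 6 in treated against control (median -0.08) and 9 in ovariectomized against control libraries (median -0.29). The first median was -0.0096 with 5 of 9 below 0 without ovariectomized replicate 3. It was 0.36 when ovariectomized replicate 1 was dropped and 0.08 when treated replicate 3 was. The second was 0.009 with 4 of 9 below 0 without control replicate 2. The third was -0.17 with 7 of 9 below 0 without ovariectomized replicate 3 and -0.21 without control replicate 2. Hmox1, the enzyme that opens the haem ring, had 137, 211 and 204 CPM in treated, 207, 163 and 124 CPM in ovariectomized, and 210, 263 and 261 CPM in control libraries. Its ovariectomized libraries all lay below its control libraries (-0.57 ± 0.22, edgeR adjusted p = 0.941). That held for 3 of the 9 clearance genes, Hmox1 included, beside 3.92% of all genes, and none had them all above. Without control replicate 2 the count was again 3 of 9, beside 9.07% of all genes. Hp, the haemoglobin-binding haptoglobin, was at 0.71 ± 0.43 in treated against ovariectomized and -0.60 ± 0.43 in ovariectomized against control libraries. Cd163, the receptor for that complex, was at 0.13 ± 0.23 and -0.19 ± 0.23, and Hpx, the haem-binding haemopexin, had 14 to 59 counts and was not tested. Without control replicate 2 the ovariectomized against control estimates were -0.53 for Hmox1, -0.67 for Hp and -0.12 for Cd163. Of 7 rows for other globin family genes, 2 were tested. Mb, the muscle oxygen carrier myoglobin, averaged 102 ± 45.4 CPM in treated, 287 ± 217 CPM in ovariectomized and 52.2 ± 47.2 CPM in control libraries. Cygb, cytoglobin, averaged 11.3 ± 2.51, 11.5 ± 0.661 and 9.51 ± 2.13 CPM in the same groups. The embryonic zeta gene Hbz had 0 to 14 counts per library.

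**Figure D5:**
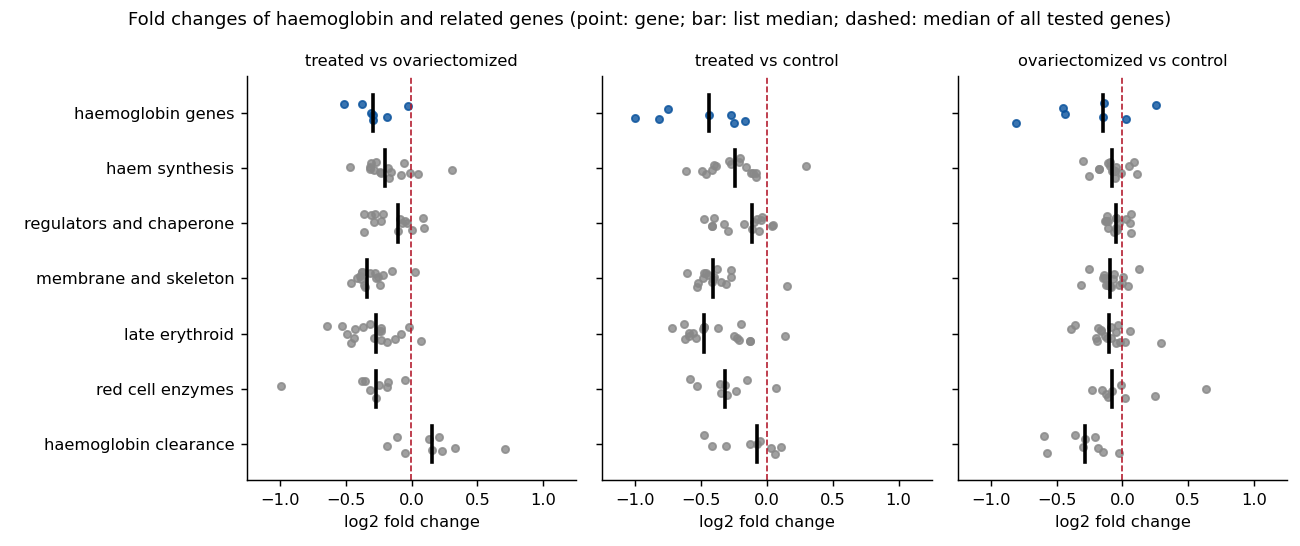
Log2 fold changes (horizontal axis) of the 7 haemoglobin genes and of the tested genes of 6 related lists, 1 point per gene, in the 3 comparisons. The black bar is the list median and the dashed line the median of all tested genes; the 5 red cell lists have their medians left of it in all panels, although without control replicate 2 their joint median in ovariectomized against control is 0.05, and clearance genes lie to its right (0.16, but -0.0096 without ovariectomized replicate 3) in treated against ovariectomized and to its left (-0.29) in ovariectomized against control.

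Summed markers of other cell types overlapped between most groups, and their part in the haemoglobin values was not tested. The summed FPKM of 9 erythroid markers with a row, of 10 listed, was 2163 to 2735 in treated, 2638 to 3097 in ovariectomized and 2477 to 3961 in control libraries, the highest in control replicate 2. The 10 neutrophil lineage markers summed to 30318 to 43875 in treated, 25697 to 31328 in ovariectomized and 21424 to 37275 in control libraries, with 1 marker at 0 in some library. The 8 adipocyte markers summed to 1089 to 1807 in treated, 1019 to 1496 in ovariectomized and 396 to 892 in control libraries, so that both treated and ovariectomized libraries lay above all control libraries. The 8 skeletal muscle markers summed to 532 to 1063 in treated, 712 to 3196 in ovariectomized and 229 to 715 in control libraries. The 8 cartilage markers, 1 of them at 0 in some library, summed to 33.9 to 140 in treated, 42.1 to 65.0 in ovariectomized and 84.3 to 286 in control libraries. All ovariectomized cartilage sums thus lay below all control sums. Markers of B lineage cells, megakaryocytes, osteoclasts and bone-forming cells had sums that overlapped between all groups. No erythroid, adipocyte or muscle marker with a row was at 0 in any library.

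The haemoglobin genes also differed in which other genes followed them across libraries (Pearson r of log2(CPM + 1) over 9 libraries, a description that includes the differences between groups). Hba-a1 and Hba-a2 had r = 0.97 with each other, and r = 0.95 over the 8 libraries without control replicate 2. Hbb and LOC100134871 had r = -0.40 over 9 libraries and r = 0.98 over those 8, and Hba-a3 and Hbb had r = -0.79 and 0.88. Of 11862 genes compared, those most like Hba-a1 were Bach1 (0.98), which encodes a haem-sensing repressor, Cdc25b (0.98), a cell cycle phosphatase, and Pdxp (0.96), a pyridoxal phosphatase. Cdc25b (0.98), Ell2 (0.97) and Bach1 (0.97) were most like Hba-a2. For Hbb they were Slc6a4 (0.97), Chn1 (0.96) and Smox (0.96), at 0.89, 0.94 and 0.72 without control replicate 2. For Hbb-bs they were Snrnp48 (0.97), Gm24067 (0.93) and Dcun1d3 (0.92). Hbq1b was followed by Snora68 (0.93), Slc15a4 (0.91) and Cntnap1 (0.91), and Hbe1 by Fdft1 (0.91), Anapc2 (0.91) and Dclk2 (0.90). Those of Hbe1 were at 0.82, 0.78 and 0.90 without control replicate 2. For Hba-a3 they were Atf6b (0.97), Mxd4 (0.97) and Fcgr2a (0.96), of which Mxd4 and Fcgr2a were at 0.46 and 0.51 without control replicate 2.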

How the data were processed

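Poly(A) RNA of 9 rat femur libraries was measured, 3 per group, and groups were taken from the sample titles. The submitters' processing notes name fastp, HISAT2 and StringTie without versions; none of the sources used here gives a genome build, a strand setting or the handling of reads that match several copies. The authors deposited 1 table with a raw count column and an FPKM column for each library, per the file headers; the counts are whole numbers. The FPKM values were scaled by the authors for length and depth, and every count of 0 stands beside a deposited FPKM of 0.0001, which was kept. Libraries held 54992823 to 66531156 counts.

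Rows with a mean of at least 1 FPKM (13886 of 32623) were tested with edgeR 4.0.16 (TMM, quasi-likelihood, all 9 libraries in 1 fit, R 4.3.3) with p-values adjusted over all tested rows at 0.05, after a check on simulated counts. CPM uses TMM-scaled totals. Levels between genes are in FPKM. DESeq2 1.42.0, limma 3.58.1 on log2(FPKM + 1), other filters and scalings, a replicate block and leaving out each library were alternatives. The text names all 7 haemoglobin genes, 23 genes fixed from the related lists except some not reported here, and for each haemoglobin gene the 3 genes with the highest correlation. Members and lists were chosen with earlier results of these data known, and the list values are described without a set test. LOC100134871, the leave-one-out and scaling values of the lists and their genes, and the overlaps and DESeq2 fit without control replicate 2 were added after seeing the data. Promoters and their motifs were read from a RefSeq table (GRCr8).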

Additional observations from a re-analysis of the deposited data

How the results depend on the processing

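Over 21 alternatives, 21 fold changes (7 genes in 3 comparisons) gave 438 values, of which 411 kept their direction and their side of the threshold. DESeq2 moved 3 past it (Hbq1b in treated against ovariectomized, Hba-a1 and Hba-a2 in treated against control), with and without control replicate 2. The direction turned in 21 values, and the cause was not tested. Hbe1 in treated against ovariectomized turned to 0.0104 without TMM factors and to 0.0197 and 0.0477 in limma with pseudocounts of 1 and 0.1, and ran between -0.25 (without ovariectomized replicate 2) and 0.21 (without ovariectomized replicate 3) when single libraries were left out. In treated against control it turned to 0.0173 and 0.0864 in limma and ran between -0.50 (without control replicate 3) and 0.54 (without control replicate 2). In ovariectomized against control it turned to 0.0387 in limma with a pseudocount of 0.1 and ran between -0.47 and 0.56 without the same libraries. Hba-a3 in treated against control turned to 0.88 and 0.89 in limma and ran between -0.83 (without control replicate 2) and 0.54 (without control replicate 1). In ovariectomized against control it ran between -0.55 and 0.82 without the same libraries, and Hbb-bs between -0.30 and 0.0406. DESeq2 without control replicate 2 turned Hbe1 to 0.55 in treated against control and 0.572 in ovariectomized against control, and Hba-a3 to -0.536 in ovariectomized against control. Hbe1 had no value at a filter of 5 FPKM, and its 26 to 86 counts limit what can be seen.

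Genes called over the whole table in treated against ovariectomized, treated against control, and ovariectomized against control were 1, 1 and 2 when only the groups compared entered the fit, 38, 153 and 59 with DESeq2, 64, 176 and 101 with DESeq2 without control replicate 2, and 0 to 2, 0 to 3 and 0 to 4 without single libraries. The mean share of the 7 genes became 17.6% in treated, 20.5% in ovariectomized and 27.1% in control libraries as a share of the FPKM sum. With LOC100134871 added it was 8.98% in treated, 10.6% in ovariectomized and 13.9% in control libraries (12.3% without control replicate 2). Under the 3 other scalings the joint median of the 5 red cell lists kept its sign in each comparison, and totals without TMM factors moved the median of all genes by at most 0.09.

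Over 9 pairs of libraries with the same replicate number the correlation of deviations ran between -0.12 and 0.25. Over 18 pairs with different numbers it ran between -0.26 and 0.145. Control and ovariectomized libraries of the same number had 0.255, 0.153 and 0.156, whereas same-number pairs with a treated library ran between -0.12 and 0.092. Whether replicate numbers pair the libraries is therefore not settled. With a replicate block edgeR called 0, 0 and 0 genes in the 3 comparisons. The smallest edgeR adjusted p was then 0.067, 0.067 and 0.17, against 0.58, 0.34 and 0.67 without the block.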
